A study of Homo sapiens with 6 samples.

Results

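The genes described here are the enzymes of fatty acid oxidation, the PPAR receptors and a set of PPAR target genes. They were chosen by name, and each of the 40 symbols was found among the 27470 genes of the deposited count table. Expression was measured in 22Rv1-ABHD5 cells. 22Rv1 is a castration-resistant line from a human prostate cancer, and it was stably infected here with a lentiviral vector that carries ABHD5 behind a doxycycline (Dox)-inducible promoter and selected with G418. The 3 control libraries came from cells without Dox and the 3 overexpressing libraries from cells with Dox, all harvested after 48 h, and all 6 carry the transgene. The Dox dose of these cultures is not given in the sources used here, nor whether the line is a clone. Without libraries of parent cells given Dox, an effect of ABHD5 and one of Dox itself cannot be told apart.

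Before a fatty acid can be oxidized in mitochondria it is coupled to CoA, handed to carnitine, carried across the inner membrane and coupled to CoA again. Each turn of beta-oxidation then removes a short acyl unit by a dehydrogenation, a hydration, another oxidation and a thiolytic cleavage, with electrons passed on to the respiratory chain. Peroxisomes run a parallel pathway for very long and branched chains, and the PPARs are nuclear receptors, activated by fatty acids as ligands, that drive many of these genes. ABHD5 is the coactivator of the triglyceride lipase ATGL and so acts on the release of the fatty acids that these enzymes use.

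The libraries were made with a kit that reads the 3ʹ end of transcripts, and they held 3394672 to 7271771 reads counted on genes. Levels are given as CPM, read counts scaled to a common library size after TMM normalization, and they are not compared between genes. ABHD5 had 63.5, 58.0 and 62.8 CPM in replicates 1, 2 and 3 without Dox and 125.9, 130.8 and 91.7 CPM with Dox, higher in every library with Dox as labelled (log2 fold change 0.91, SE, the standard error of the fit, 0.15, adjusted p = 1.978e-04, edgeR's quasi-likelihood test). The counts do not separate reads of the transgene from those of the native gene. How fully these 3ʹ libraries count the transgene was not tested, so this value need not equal the induction. Of 11 prostate luminal markers, all were counted and 7 were lower with Dox. Their summed level was 1604 to 1704 CPM without Dox and 997 to 1112 CPM with Dox, and the part of this shift in the results below was not tested. The 14 markers of fibroblasts, immune cells and endothelium summed to 7.31 to 11.2 CPM without Dox and 7.51 to 10.8 CPM with Dox. Among them PDGFRB, CD3E, PECAM1, VWF and CDH5 were at 0 in every library. Of these 14, only the fibroblast genes COL1A1 and LUM had enough reads to test. COL1A1, a collagen gene, rose, with CPM that overlapped between conditions (log2 fold change 1.22, adjusted p = 0.0313, same test). LUM, a matrix proteoglycan, did not pass (log2 fold change -0.78, adjusted p = 0.190, same test). In bulk RNA, fewer cells that express a gene and less RNA per cell cannot be told apart.

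Most fatty acid oxidation genes did not pass the test between cells with and without Dox, and the 5 that did went in both directions. CPT1A, the entry enzyme of the mitochondrial pathway, and ECI2, an isomerase for unsaturated chains, fell. ACAD10, an acyl-CoA dehydrogenase, DECR1, a reductase for unsaturated chains, and HSD17B4, the peroxisomal D-bifunctional enzyme, rose. Of the 40 genes, 33 passed the filter on low counts. Of those 33, 3 were higher and 2 were lower at an adjusted p under 0.05, or 15.2% in all. Of all 12233 genes tested, 25.5% passed in either direction, 11.9% higher and 13.7% lower. The share among these genes was lower at this threshold, and the difference between the shares was not tested. The groups by role below hold 3 to 6 tested genes each, too few to set against these shares. The median log2 fold change of the 33 was 0.0044, with 17 above and 16 below 0, beside 0.016 over all genes. None of the 33 changed by 2-fold or more by edgeR's estimate, with a range of -0.80 to 0.67, whereas 8.06% of all genes did. The median size of the change, without its sign, was 0.26 among these genes and 0.30 over all genes. In 15 of the 33 the CPM of the conditions did not overlap, 6 higher and 9 lower with Dox. This held for 39.5% of all genes, 19% higher and 20.5% lower. Before adjustment, 13 of the 33, or 39.4%, had p under 0.05, beside 36.8% of all genes.

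**Figure D1:**
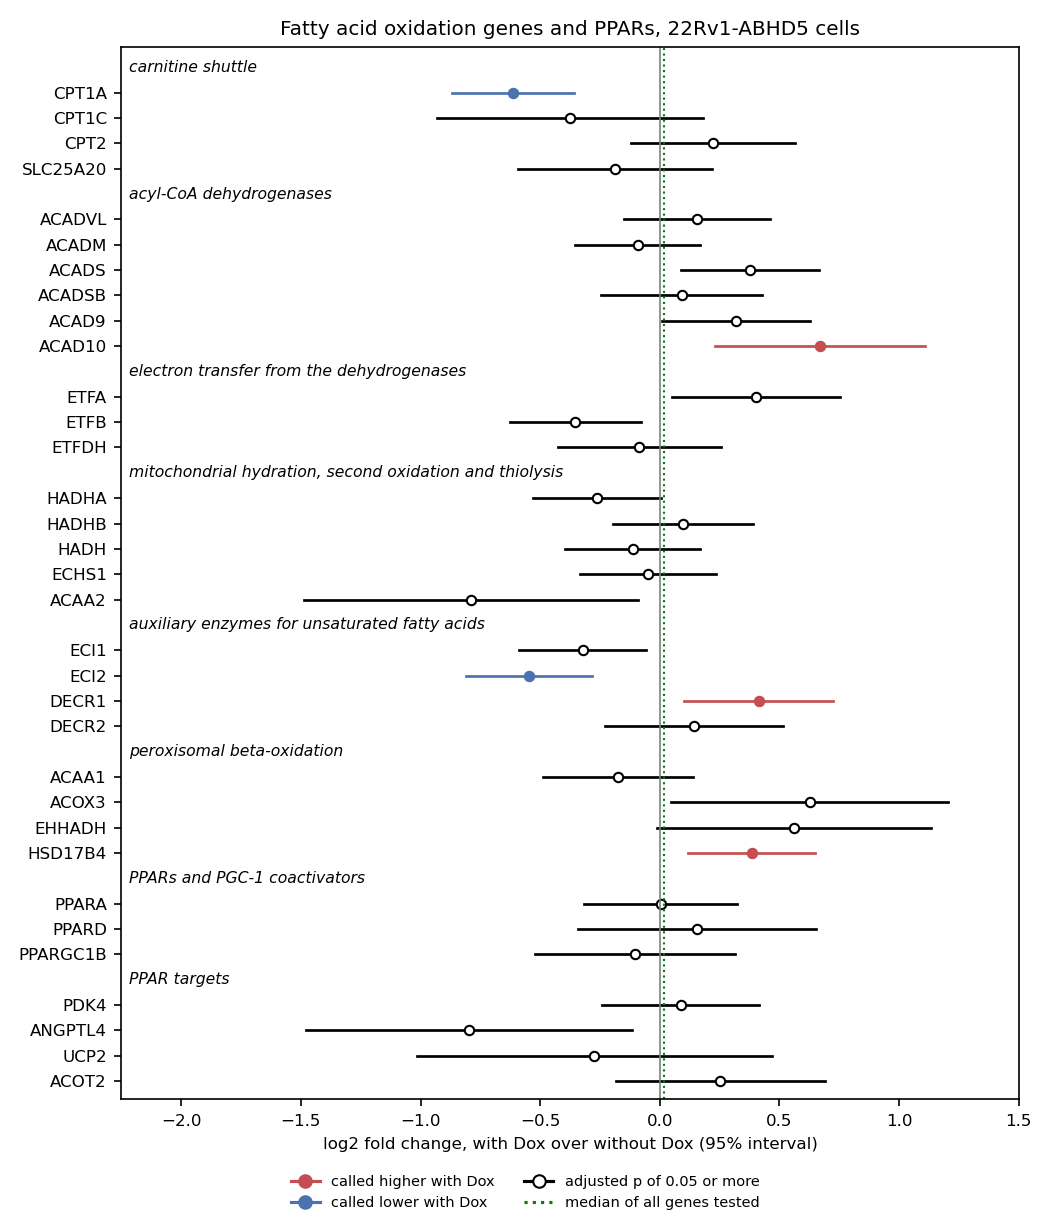
Log2 fold change with Dox over without Dox (x axis) of the 33 tested genes, grouped by role, with 95% intervals from edgeR's quasi-likelihood fit of 3 against 3 libraries; the dotted line is the median of all genes. CPT1A and ECI2 lie below 0 and ACAD10, DECR1 and HSD17B4 above it as the 5 called genes, and the PPARs sit near 0.

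The other 7 genes had too few reads to test. PPARG, ACAD11, ACOX2 and ACOT1 had 0 counts in all 6 libraries, which allows up to 0.394 to 0.930 CPM by library, by counting error only. CPT1B, the muscle form of the carnitine enzyme, had 2, 0 and 1 counts without Dox and 0 in each library with Dox. PPARGC1A, which encodes the coactivator PGC-1 alpha, had 3, 1 and 5 counts without Dox and 1, 3 and 4 with Dox. ACADL, the long-chain dehydrogenase, had 2.35, 2.48 and 1.75 CPM without Dox and 6.31, 5.01 and 1.84 CPM with Dox. The replicate 3 library with Dox lay below replicates 1 and 2 without Dox, and without a filter ACADL did not pass (log2 fold change 0.94, adjusted p = 0.137, edgeR's quasi-likelihood test). For some of these genes a count near 0 need not mean absence. In GENCODE 44 on hg38, CPT1B (chromosome 22, 50568861 to 50578465, minus strand) shares 66.4% of its exonic bases with the readthrough gene CHKB-CPT1B. ACOT1 is a close relative of ACOT2 at a neighbouring place on chromosome 14, so reads could be split or lost between the copies. The part of these overlaps in the low counts was not tested.

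The 250 bases before the start site were available from RefSeq (GRCh38.p14) for 31 of the 40 genes, and those of 4 of the called genes are shown, as far as they lie outside annotated exons, because PPARs bind DNA near their target genes. A PPAR site is written as the half-site AGGTCA repeated directly with any base between the copies. Capitals mark the half-site AGGTCA and the GC box GGGCGG on either strand, so that TGACCT and CCGCCC are their reverse complements. The CPT1A window is chr11:68844411-68844527, that of ECI2 chr6:4135598-4135825 (both minus strand), that of ACAD10 chr12:111685803-111686052 and that of HSD17B4 chr5:119452247-119452464 (both plus strand).
CPT1A: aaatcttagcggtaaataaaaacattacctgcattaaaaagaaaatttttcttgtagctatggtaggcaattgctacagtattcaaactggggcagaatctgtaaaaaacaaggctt
ECI2: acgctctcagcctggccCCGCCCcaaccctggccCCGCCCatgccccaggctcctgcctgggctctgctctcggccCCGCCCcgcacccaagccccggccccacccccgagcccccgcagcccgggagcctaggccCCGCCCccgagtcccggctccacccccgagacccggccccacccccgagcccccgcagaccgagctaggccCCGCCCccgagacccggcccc
ACAD10: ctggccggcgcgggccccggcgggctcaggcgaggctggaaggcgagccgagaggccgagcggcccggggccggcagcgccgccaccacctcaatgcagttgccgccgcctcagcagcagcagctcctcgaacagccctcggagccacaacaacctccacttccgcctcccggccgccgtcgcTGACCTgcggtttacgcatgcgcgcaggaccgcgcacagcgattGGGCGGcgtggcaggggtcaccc
HSD17B4: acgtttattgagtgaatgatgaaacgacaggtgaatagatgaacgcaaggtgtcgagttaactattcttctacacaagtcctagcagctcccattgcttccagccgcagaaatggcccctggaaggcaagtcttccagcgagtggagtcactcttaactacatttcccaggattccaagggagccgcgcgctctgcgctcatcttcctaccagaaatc

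The windows of these 4 genes differ in make-up. That of ECI2 holds 5 GC boxes in 228 bases and is 81.6% G and C, while that of CPT1A holds none in 117 bases and is 32.5% G and C. The stretches shown differ in length. For CPT1A, ECI2 and HSD17B4 the bases nearest the start site are left out, from the first base in an annotated exon. The full 250 bases of HSD17B4 hold a GC box, but the 218 bases shown hold none. A single start site per gene was used, so these values need not hold for other starts of a gene. ACAD10 is the only one of the 4 with the half-site. The full direct repeat was in 0 of the 31 windows of 250 bases and in 0.0183% of 27305 windows of all genes. The half-site alone, which is part of that repeat, was in 2 of the 31, ACAD10 and PPARG, and in 12.1% of all windows. The GC box was in 23 of the 31, or 74.2%, and in 42.3% of all windows. The median share of G and C was 66.0% in the 31 and 58.0% in all windows. The CCAAT box was in 9 of the 31, or 29.0%, and in 33.0% of all windows. All were sought on both strands. A match, or the lack of one in this window, says nothing about binding.

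In the carnitine shuttle, CPT1A was the only gene to pass the test. It encodes the outer membrane enzyme that is inhibited by malonyl-CoA and sets the rate of entry of long chains, and lies on chromosome 11 of hg38 from 68754620 to 68844410 (minus strand). CPT1A had 351, 404 and 356 CPM in the libraries without Dox and 247, 244 and 235 CPM with Dox. The conditions were well apart, with little spread with Dox. The fall amounted to a log2 fold change of -0.61 (SE 0.12, adjusted p = 0.00111, edgeR's quasi-likelihood test), a level 34.6% lower, and it was past the threshold in each of 15 alternative settings (-0.66 to -0.49). CPT1C, the brain form, had 8.36, 9.61 and 8.03 CPM without Dox and 6.74, 5.29 and 7.49 CPM with Dox. The conditions did not overlap, but the difference did not pass (log2 fold change -0.38, 95% interval -0.93 to 0.18, adjusted p = 0.324, same test). CPT2, the inner membrane partner of CPT1A, had 22.7, 27.3 and 26.4 CPM without Dox and 31.1, 30.6 and 27.7 CPM with Dox, with no overlap (log2 fold change 0.22, 95% interval -0.12 to 0.57, adjusted p = 0.347, same test). SLC25A20, the carrier that swaps acylcarnitine for carnitine, had a log2 fold change of -0.19 (adjusted p = 0.516, same test).

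CPT1A and CPT2 thus had estimates of opposite sign, and their ratio inside a library does not depend on how libraries are scaled. There were 15.45, 14.8 and 13.5 CPT1A reads for each CPT2 read in replicates 1, 2 and 3 without Dox, and 7.96, 7.98 and 8.47 with Dox. The ratio is given as a description, since the pair was chosen after its values were seen.

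Among the acyl-CoA dehydrogenases, which take the first step of each turn, 5 of the 6 tested had an estimate above 0 (all 6 with library totals alone) and 1 passed the test. ACAD10, a family member whose substrates are less well known, lies on chromosome 12 from 111686053 to 111757107. It had 11.8, 15.8 and 11.9 CPM without Dox and 24.1, 19.8 and 18.4 CPM with Dox. Every library with Dox was above every library without it. The gene rose by a log2 fold change of 0.67 (SE 0.21, adjusted p = 0.0256, edgeR's quasi-likelihood test). The call rested on single libraries: leaving out control replicate 1 gave an adjusted p of 0.112, leaving out control replicate 3 gave 0.0977 and leaving out replicate 1 with Dox gave 0.118, by the same test.

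ACADS, the short-chain dehydrogenase, had 210.3, 217 and 155 CPM without Dox and 247, 259 and 248 CPM with Dox. The conditions did not overlap, and the difference just missed the threshold (log2 fold change 0.38, adjusted p = 0.0515, edgeR's quasi-likelihood test); it passed in 8 of 15 alternative settings. ACAD9, which also helps to assemble respiratory complex I, had 50.7, 57.7 and 47.8 CPM without Dox and 70.9, 68.7 and 55.2 CPM with Dox (log2 fold change 0.32, adjusted p = 0.125, same test). The lowest library with Dox lay within the range without Dox. ACADVL, ACADM and ACADSB, for very long, medium and short branched chains, had log2 fold changes of 0.15, -0.09 and 0.09, with 95% intervals of -0.15 to 0.46, -0.35 to 0.17 and -0.24 to 0.43. Their conditions overlapped.

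The electron transfer flavoprotein takes the electrons of the dehydrogenases, and the estimates for its subunits had opposite signs. ETFA, the alpha subunit, had 368, 238 and 349.8 CPM without Dox and 411, 346 and 507 CPM with Dox (log2 fold change 0.40, adjusted p = 0.0860, edgeR's quasi-likelihood test). Replicate 2 was low in both conditions, and the conditions overlapped. ETFB, the beta subunit, had 231, 294 and 225 CPM without Dox and 192, 204 and 189.5 CPM with Dox (log2 fold change -0.35, adjusted p = 0.0557, same test). These conditions did not overlap. Neither subunit passed the threshold here; of the 15 alternative settings, ETFA passed in 4 and ETFB in 3. The ratio of ETFA to ETFB reads inside a library was 1.595, 0.809 and 1.56 without Dox and 2.14, 1.69 and 2.67 with Dox, also a pair chosen after its values were seen. ETFDH, which passes the electrons to ubiquinone, had a log2 fold change of -0.09 (95% interval -0.43 to 0.26).

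**Figure D2:**
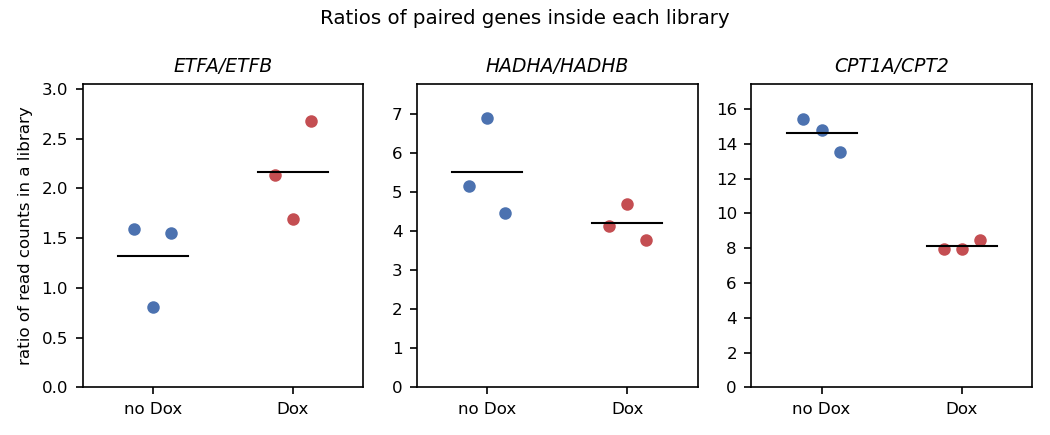
Ratio of read counts of 2 genes inside each library (y axis, from 0) without and with Dox; points are libraries, ordered by replicate from left to right, and lines are means. For CPT1A/CPT2 and ETFA/ETFB the conditions do not overlap, and for HADHA/HADHB they do.

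None of the 5 genes for the later mitochondrial steps passed the test, beside 25.5% of all genes. Of the 5 estimates, 4 were below 0 (2 of 5 with library totals alone). HADHA and HADHB encode the subunits of the trifunctional protein and lie head to head on chromosome 2, HADHA from 26190635 to 26244672 and HADHB from 26243170 to 26290465. HADHA had 335, 407 and 346 CPM without Dox and 315, 316 and 275 CPM with Dox (log2 fold change -0.26, adjusted p = 0.142, edgeR's quasi-likelihood test). HADHB had 65.0, 58.9 and 77.3 CPM without Dox and 76.1, 67.3 and 72.9 CPM with Dox (log2 fold change 0.10, adjusted p = 0.650, same test). The HADHA libraries did not overlap between conditions and those of HADHB did, and the ratio of HADHA to HADHB reads overlapped, with 5.15, 6.90 and 4.48 without Dox and 4.14, 4.69 and 3.78 with Dox. ACAA2, the mitochondrial thiolase, had only 8 to 29 reads per library. Its level was 5.75, 5.89 and 5.06 CPM without Dox and 3.70, 2.23 and 3.42 CPM with Dox, and with a SE of 0.33 its log2 fold change of -0.79 did not pass (adjusted p = 0.0902, same test). ECHS1, a hydratase, and HADH, a hydroxyacyl-CoA dehydrogenase, had log2 fold changes of -0.05 and -0.11, with 95% intervals of -0.33 to 0.24 and -0.40 to 0.17.

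Unsaturated chains need isomerases and reductases beside the main cycle, and here 1 gene fell and 1 rose. ECI2, an enoyl-CoA isomerase found in peroxisomes and mitochondria, lies on chromosome 6 from 4115693 to 4135597 (minus strand). It had 153, 173 and 170.0 CPM without Dox and 103, 123 and 114 CPM with Dox. All libraries with Dox were below those without. ECI2 had a log2 fold change of -0.55 (SE 0.12, adjusted p = 0.00358, edgeR's quasi-likelihood test), and it stayed past the threshold in each of 15 alternative settings (-0.61 to -0.42). ECI1, its mitochondrial relative, had 204, 247 and 209.7 CPM without Dox and 162, 175 and 189.9 CPM with Dox. These conditions did not overlap either, but the difference did not pass (log2 fold change -0.32, adjusted p = 0.0708, same test).

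DECR1, the mitochondrial dienoyl-CoA reductase, had 45.7, 44.04 and 55.5 CPM without Dox and 58.3, 62.6 and 72.9 CPM with Dox. The highest library without Dox came within 3 CPM of the lowest with Dox. The rise of DECR1 was 0.41 on the log2 scale (SE 0.15, adjusted p = 0.0487, edgeR's quasi-likelihood test), close to the threshold, and the call was lost in 9 of 15 alternative settings. These were DESeq2, voom, the deposited normalized values, no filter, and the fits that left out control replicate 1 or 2 or any 1 of the libraries with Dox (adjusted p 0.0511 to 0.188). DECR2, the peroxisomal reductase, had a log2 fold change of 0.14 (adjusted p = 0.604, edgeR's quasi-likelihood test), and shares 14.3% of its exonic bases with NME4 on the same strand.

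**Figure D3:**
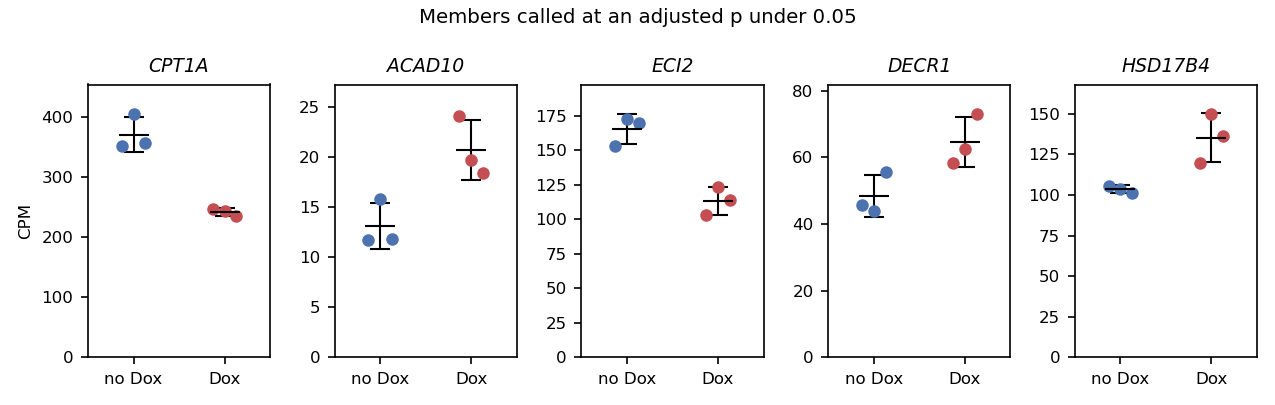
CPM (y axis, from 0) of the 5 called genes in cells without and with Dox; points are libraries, ordered by replicate, with the mean and SD of 3. The conditions do not overlap for any of the 5, and CPT1A is farthest apart against its spread.

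In the peroxisome, 3 of the 4 tested genes had estimates of 0.38 to 0.63 and 1 passed the test. HSD17B4, the enzyme that hydrates and oxidizes the chain in the D form, lies on chromosome 5 from 119452465 to 119637199. It had 106, 104 and 101 CPM without Dox and 119.6, 149.7 and 136 CPM with Dox. The libraries without Dox lay close together and all below those with Dox. The rise of HSD17B4 was 0.38 on the log2 scale (SE 0.13, adjusted p = 0.0333, edgeR's quasi-likelihood test). The call was lost without a filter and in the fits that left out replicate 1, 2 or 3 without Dox or replicate 2 or 3 with Dox (adjusted p 0.0527 to 0.107).

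ACOX3, an oxidase for branched chains, had 7.58, 4.65 and 6.81 CPM without Dox and 11.7, 10.3 and 8.14 CPM with Dox, with no overlap between conditions (log2 fold change 0.63, adjusted p = 0.105, edgeR's quasi-likelihood test). EHHADH, the L-bifunctional enzyme, had 11.2, 6.51 and 6.98 CPM without Dox and 12.8, 14.7 and 9.46 CPM with Dox, with overlap (log2 fold change 0.56, adjusted p = 0.145, same test). Their SEs were 0.27 each, at 15 to 72 reads per library. ACAA1, the peroxisomal thiolase, had a log2 fold change of -0.17 (adjusted p = 0.430, same test). In the annotation it shares 19.7% of its exonic bases with DLEC1 on the opposite strand.

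None of the 3 PPAR receptors or coactivators that could be tested passed the test, beside 25.5% of all genes. PPARA, the form that drives fatty acid oxidation in liver, had 40.0, 42.8 and 34.7 CPM without Dox and 40.0, 35.3 and 41.4 CPM with Dox. The log2 fold change was 0.0044, with a 95% interval of -0.32 to 0.32 (adjusted p = 0.988, edgeR's quasi-likelihood test). PPARD, the widely expressed form, had 9.66, 7.75 and 9.43 CPM without Dox and 9.35, 10.02 and 10.6 CPM with Dox (log2 fold change 0.16, 95% interval -0.34 to 0.65, adjusted p = 0.675, same test). PPARGC1B, which encodes PGC-1 beta, had 19.9, 22.6 and 16.6 CPM without Dox and 21.1, 17.3 and 16.3 CPM with Dox (log2 fold change -0.10, 95% interval -0.52 to 0.31, adjusted p = 0.748, same test). The conditions overlapped for each of these genes. The intervals leave room for changes of moderate size, more so for PPARD with its lower counts.

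Of the 4 PPAR target genes tested here, 0 passed, beside 25.5% of all genes. Before adjustment, 1 of the 4 had p under 0.05 by edgeR, beside 36.8% of all genes. PDK4, a kinase that shuts off pyruvate dehydrogenase, had 40.7, 36.3 and 36.8 CPM without Dox and 46.8, 39.0 and 35.6 CPM with Dox (log2 fold change 0.09, 95% interval -0.24 to 0.41, adjusted p = 0.728, edgeR's quasi-likelihood test). ANGPTL4, a secreted inhibitor of lipoprotein lipase, had 7.05, 5.27 and 9.25 CPM without Dox and 5.002, 2.78 and 4.597 CPM with Dox. The ANGPTL4 libraries with Dox were all lower, but the difference did not pass (log2 fold change -0.80, 95% interval -1.48 to -0.12, adjusted p = 0.0809, same test), nor in any of 15 alternative settings (adjusted p 0.0571 to 0.351). UCP2, an inner membrane carrier, had 3.92, 10.2 and 5.24 CPM without Dox and 5.002, 4.17 and 6.04 CPM with Dox, with a log2 fold change of -0.27 that was 0.15 without replicate 2 without Dox. ACOT2, a mitochondrial acyl-CoA thioesterase, had 15.9, 18.9 and 16.1 CPM without Dox and 17.4, 16.7 and 25.2 CPM with Dox. The last of these libraries stood above the rest (log2 fold change 0.25, adjusted p = 0.408, same test).

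**Figure D4:**
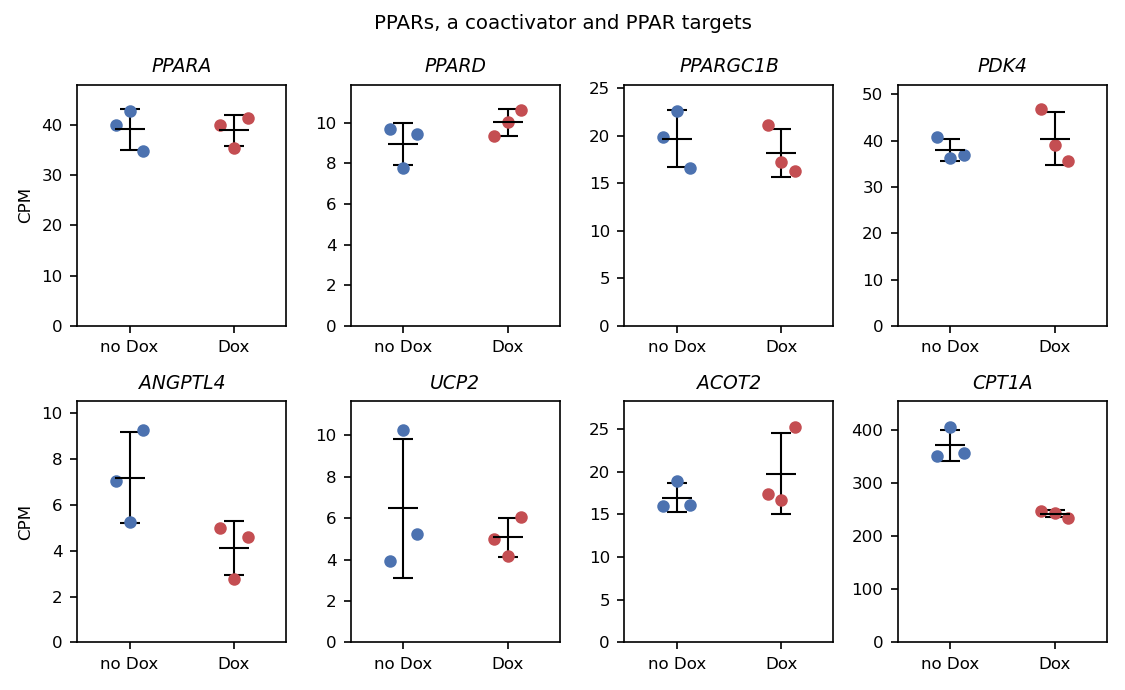
CPM (y axis, from 0) of PPARA, PPARD, PPARGC1B, 4 PPAR targets and CPT1A without and with Dox; points are libraries, ordered by replicate, with the mean and SD of 3. Conditions overlap for each gene except ANGPTL4, which did not pass the test, and CPT1A, which fell.

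Next to the core pathway, PLIN2 and CROT rose and AMACR and ACOT7 fell. The same fit was read for a list covering peroxisomal and mitochondrial acyl-CoA handling, ketone bodies, PPAR partners, the PGC-1 network and further PPAR targets. It held 81 other genes. Of these, 62 were tested, and 8 were higher and 6 lower at an adjusted p under 0.05, or 22.6%, beside 25.5% of all genes. The median log2 fold change was 0.08. Of the 62, 5 had a log2 fold change beyond 1 in size, or 8.06%, which is also the share among all genes. The median size of the change was 0.26, as among the core genes.

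In the peroxisome, CROT, which hands medium chains to carnitine for export, had 96.4, 89.6 and 86.4 CPM without Dox and 189, 224 and 179 CPM with Dox. This was 2.17-fold higher (adjusted p = 6.508e-06, edgeR's quasi-likelihood test). AMACR, the racemase that prepares branched chains, had 18, 13 and 21 counts without Dox and 5, 2 and 6 with Dox. It fell, with a log2 fold change of -2.28 that is loosely set by these few reads (SE 0.44, adjusted p = 9.982e-04, same test).

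Of the PPAR targets and their relatives outside the core, 10 were tested. Of these, 1 was higher, 1 was lower and 8 did not pass. The higher one was PLIN2, a lipid droplet coat protein. It had 7.58, 7.75 and 6.11 CPM without Dox and 23.5, 26.7 and 26.8 CPM with Dox, 3.64-fold higher (adjusted p = 4.660e-06, edgeR's quasi-likelihood test). Of the genes of ketone use, BDH2 and OXCT1 rose, with log2 fold changes of 0.62 and 0.45 (adjusted p = 0.0225 and 0.0288, same test). BDH1 and ACAT1 did not pass, with log2 fold changes of 0.22 and 0.19 (adjusted p = 0.286 and 0.375, same test). Of the PPAR partners and the PGC-1 network, NCOA1, a nuclear receptor coactivator, rose (log2 fold change 0.81, adjusted p = 0.00108, same test). TFAM, the factor that packs mitochondrial DNA, fell (log2 fold change -0.53, adjusted p = 0.0112, same test). The TFAM call was lost on leaving out control replicate 3 (adjusted p = 0.0661 by that test). ACOT7, a cytosolic thioesterase, fell from 35.1 ± 1.16 to 17.8 ± 0.769 CPM (SD, n = 3 each, adjusted p = 2.572e-04, edgeR's quasi-likelihood test). PDK3, a relative of PDK4, fell by 0.68 on the log2 scale (adjusted p = 0.00974, same test), and this call was lost on leaving out control replicate 2 (adjusted p = 0.0588 by that test).

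**Figure D5:**
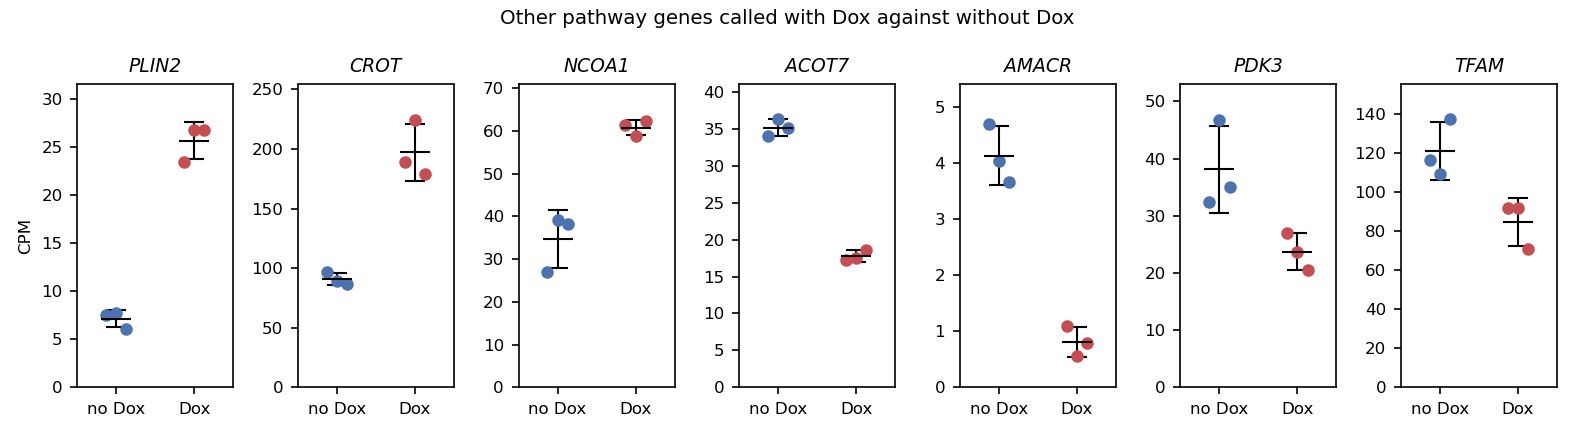
CPM (y axis, from 0) of 7 other pathway genes called between cells without and with Dox; points are libraries, ordered by replicate, with the mean and SD of 3. The conditions do not overlap for any of the 7, and PLIN2 rose from 7.58, 7.75 and 6.11 to 23.5, 26.7 and 26.8 CPM.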

How the data were processed

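RNA of 6 libraries was sequenced from the 3ʹ end (100 bp single-end reads; the kit is called FWD in the labels and REV in the published methods). The authors demultiplexed with CASAVA 1.8.2, aligned reads to hg38 using STAR and deposited a table of raw counts by gene symbol, with HTSeq named in the submitters' processing notes. Their annotation and strand setting are not given in the sources used here. They also deposited a normalized signal per library, scaled by a method that is not stated, which served as an alternative. Counts were tested with edgeR 4.0.16 (filterByExpr, TMM, quasi-likelihood test, Benjamini-Hochberg over all 12233 genes tested, threshold 0.05) in R 4.3.3, with limma 3.58.1 and DESeq2 1.42.0 as alternatives beside other scalings and filters, a fit with the replicate block, and fits that leave out 1 library. Log2 of the signal was taken after adding 1. The scripts were run on simulated counts with known changes.

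The 5 rows that name no gene entered neither library sizes nor tests. Reads on no gene made up 32.5% to 39.5% and ambiguous reads 3.05% to 3.37% of those listed. Replicates differed by more than sampling noise (chi-square per degree of freedom 4.35 to 12.2). Nothing says that libraries came from separate cultures, so p-values measure the spread between these libraries. Floors of 3 counts cover counting error only, since reads carry no molecular identifiers. The genes and lists were chosen with earlier results of these data known. Each gene is named, with full values for those called, the PPARs, the CPT1 genes, PDK4 and ANGPTL4; of the other pathway genes, the 5 of smallest adjusted p among those higher and among those lower are given, except some genes that are not reported here, and further genes were named after their values were seen. Positions and overlaps are from GENCODE 44.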

Additional observations from a re-analysis of the deposited data

Results flagged for a closer look

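Reads that fell on no gene were outside the comparisons, and their share of the reads listed was higher in every library with Dox (35.6% to 39.5%) than in any without (32.5% to 34.6%).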

How the results depend on the processing

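Results were recomputed under 15 alternative settings. The ABHD5 log2 fold change kept its direction and its call in each (0.81 to 1.06). The number of core genes called higher, 3, was 6 with library totals alone, 5 with the replicate block and 0 to 3 with 1 library left out (0 without replicate 1 without Dox, and 1 without replicate 3 without Dox or replicate 1 with Dox). With the block, ACADS and ETFA were gained as higher, and ETFB and ECI1 as lower. The number called lower, 2, was 4 with the replicate block, 3 without a filter and 2 to 3 with 1 library left out. Of the other pathway genes, 8 were called higher, 13 with library totals alone and 6 to 11 with 1 library left out, and 6 lower, 5 to 7 with 1 library left out. The number of these called lower was 4 with at least 10 counts in every library. Library totals alone shifted the transcriptome's median log2 fold change from 0.016 to 0.138, and 65.7% rather than 46.4% of called genes were then higher, with 6 core genes higher and 2 lower. The cause was not tested. ACAA2 and AMACR have no value under the filter of at least 10 counts in every library.

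Estimates near 0 changed sign without passing the threshold. With library totals alone ACADM had 0.029, ETFDH 0.037, HADH 0.0079, ECHS1 0.074 and PPARGC1B 0.018, and ECHS1 had 0.0063 with upper-quartile normalization. PPARA had -0.0099 without a filter and -0.0015 from the deposited normalized values, and -0.085 to 0.064 with 1 library left out. With 1 library left out, ETFDH ranged from -0.21 to 0.015, ECHS1 from -0.17 to 0.065, DECR2 from -0.0035 to 0.27, PDK4 from -0.033 to 0.18 and UCP2 from -0.53 to 0.15. Same-numbered libraries deviated from their condition's mean with r of -0.01, 0.23 and 0.09 across genes, and only replicate 2 matched its own number best. These few values cannot settle whether the numbers pair the libraries. Standard errors reached 0.35 among the core genes and 0.50 among the other pathway genes.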
